A study of Homo sapiens with 24 samples.

Results

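Mitochondrial ribosomal proteins are the proteins of the ribosome that works inside mitochondria. They are encoded in the nucleus, made in the cytoplasm and imported into the organelle, where they join ribosomal RNA encoded by the mitochondrial genome. The members described here are the protein-coding rows whose symbol is MRPL or MRPS, a number and at most a letter from A to C. The rule found 78 of the 60668 rows in the count table, 49 with an MRPL and 29 with an MRPS symbol, and all 78 passed the filter on low counts. By subunit, 51 are large-subunit and 26 are small-subunit proteins. MRPS30 and MRPS18A carry small-subunit names but sit in the large subunit. MRPS36, which RefSeq lists as KGD4, is a component of the 2-oxoglutarate dehydrogenase complex and not a ribosomal protein, and it is kept only because its symbol meets the rule.

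The mitochondrial ribosome translates the mRNAs of the 13 protein-coding genes of the mitochondrial genome, all of which encode subunits of the respiratory chain and ATP synthase. Its proteins are of 2 kinds, homologues of bacterial ribosomal proteins (48 members) and proteins found only in mitochondrial ribosomes (29 members). In the large subunit, the stalk recruits translation factors, the central protuberance contacts the small subunit, and the rim of the exit tunnel faces the inner membrane into which the new proteins are inserted. MYC, the transcription factor activated in these cells, is known for raising the expression of ribosome biogenesis and mitochondrial genes.

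RNA was sequenced from 24 strand-specific, poly(A)-selected libraries of 3D cultures grown on Matrigel. The cells were MCF-10A, an immortalised human mammary epithelial line, without a transgene (called parental here) or with MYC-ER, a fusion of MYC to the hormone-binding domain of the oestrogen receptor that enters the nucleus when it binds 4-hydroxytamoxifen (4-OHT). Cultures of both lines received 1 μM 4-OHT for 0, 8, 24 or 48 h, and every culture was collected on day 5, so that treatment began on day 3 at the earliest. Each of the 8 groups holds 3 libraries from cultures seeded in triplicate at 10000 cells per well. The labels do not give the promoter of the fusion or whether the MYC-ER line is a clone, and p-values measure the spread between these wells only.

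Library totals ran from 136860029 to 182438505 counts, and the member with the fewest reads still had 1657 counts in its lowest library. Counts are given as CPM, a gene's counts scaled for library size with TMM factors. All 8 epithelial markers were present in every library, from EPCAM at 1.73 to 77.8 CPM and KRT14 at 603 to 10877 CPM to KRT5 at 6763 to 14121 CPM. Of the 11 markers of other cell types, CD3E (T cells), CDH5 (endothelium) and ADIPOQ (fat) were at 0 in all 24 libraries, PTPRC (leukocytes) in 23 and COL1A2 (fibroblasts) in 22. The other 6 had counts in every library, namely COL1A1 (53.6 to 220 CPM), DCN (21.0 to 157 CPM), CD68 (4.20 to 23.6 CPM), PECAM1 (0.0464 to 2.32 CPM), PLIN1 (0.0811 to 1.71 CPM) and PDGFRB (0.463 to 1.65 CPM). The MYC row held 244 to 797 CPM and ESR1 at most 0.557 CPM, and neither row can check for the fusion, whose species of origin the labels do not give. The parental 0 h group stood apart in its spread. Its replicate 2 was most similar to a parental 8 h library, whereas the other 23 libraries were most similar to 1 of their own group, and mitochondrial-genome genes took 3.86% of the counts in replicate 1 against 7.28% and 7.03% in the others.

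The members' summed level was higher after MYC-ER was activated. Summed over the 78 members, the MYC-ER libraries held 3158, 3202 and 3285 CPM at 0 h, 4821, 4522 and 4691 CPM at 8 h, 4885, 4765 and 4756 CPM at 24 h, and 3545, 3482 and 3417 CPM at 48 h. The 8 h and 24 h libraries lay above every 0 h library, and the 48 h libraries lay above the 0 h libraries by less. In parental cells the sums were 4956, 4246 and 5481 CPM at 0 h, 4457, 4398 and 4530 CPM at 8 h, 3944, 4163 and 4029 CPM at 24 h, and 3839, 3911 and 4099 CPM at 48 h. Treated parental libraries therefore lay within or below the range of the untreated ones. In these bulk samples, fewer cells of a type and less RNA per cell cannot be told apart.

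**Figure D1:**
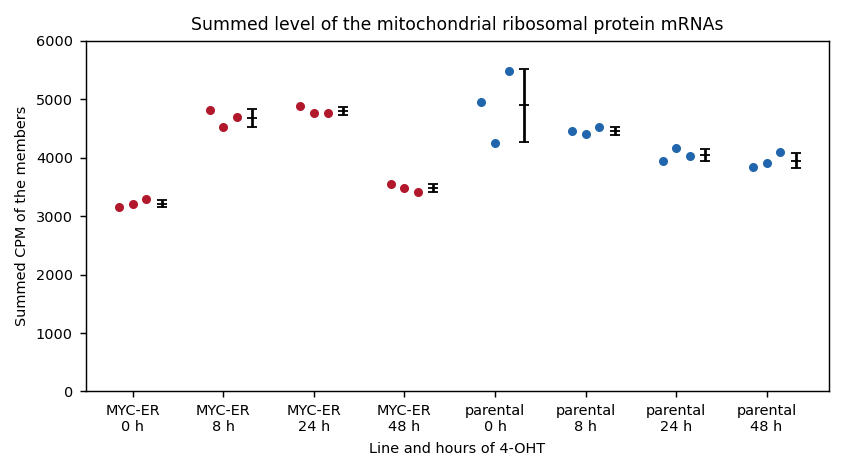
Summed CPM of the 78 members (vertical axis) in each library of the 8 groups of line and hours of 4-OHT (horizontal axis), with the mean and SD of each group of 3 beside the points. The MYC-ER means are 3215 (0 h), 4678 (8 h), 4802 (24 h) and 3481 (48 h), and the parental 0 h libraries are the most widely spread.

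After 8 h of 4-OHT in MYC-ER cells, 61 of the 78 members had risen and 4 had fallen, where a call means an adjusted p under 0.05 in edgeR's quasi-likelihood test over all genes. Over all 22158 genes tested, 32.2% were called higher and 35.4% lower in this comparison. The median log2 change was 0.52 for the members and -0.10 for all genes tested, and 11 members at least doubled. With members whose spans overlap another well-covered gene left out, 50 of 65 had risen and 4 had fallen. With library size as the only scaling, 60 members were higher and 9 lower, and the medians were 0.43 for the members and -0.19 for all genes. With upper-quartile scaling 54 were higher and 9 lower, with medians of 0.38 and -0.24, and with GC and length trends removed 62 were higher and 8 lower. Beside this rise, genes of the mitochondrial genome took 5.61% to 6.58% of the counts at 8 h against 9.24% to 9.71% at 0 h, and the 4 fibroblast markers summed to 102 to 109 CPM at 8 h against 369 to 377 CPM at 0 h, with COL1A2 at 0 in 22 of the 24 libraries. Their part in the result was not tested.

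MRPS6, the bS6m protein of the small subunit, had the largest rise. Its level was 30.7, 31.1 and 33.2 CPM in the MYC-ER 0 h libraries and 121, 111 and 116 CPM at 8 h, a 3.66-fold increase (log2 change 1.87, SE 0.071, adjusted p = 8.28e-16). All 3 libraries at 8 h lay far above those at 0 h, and above the parental libraries, which held 69.0 to 99.0 CPM over all times. SLC5A3, a carrier for myo-inositol, lies within the MRPS6 locus. Its row held 138% of the counts of MRPS6 and rose by 1.52 on the log2 scale (SE 0.162, adjusted p = 2.83e-08), so reads may have been divided between the 2 genes and the value for MRPS6 is uncertain.

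MRPS23, a small-subunit protein found only in mitochondrial ribosomes, rose from 28.2, 29.5 and 31.4 CPM to 93.5, 85.0 and 88.9 CPM, which is 3.00-fold (log2 change 1.58, SE 0.073, adjusted p = 2.47e-14). MRPL36, the bL36m protein, went from 15.3, 15.6 and 17.6 CPM to 49.2, 45.6 and 46.0 CPM, which is 2.90-fold (log2 change 1.54, SE 0.076, adjusted p = 7.09e-14). Neither gene's libraries overlapped between 0 and 8 h. MRPL36 overlaps NDUFS6, a complex I subunit with 170% of its counts, whose own change was 0.47. The next members in order were MRPS17 (log2 change 1.49), MRPL17 (1.47), which lines the exit tunnel, and MRPL3 (1.31), a protein near the peptidyl transferase centre. MRPL3 stood at 65.9, 74.5 and 69.1 CPM at 0 h and at 174, 174 and 173 CPM at 8 h.

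The 4 members that fell were MRPS14, MRPS18B, MRPS24 and MRPL34. MRPS14, the uS14m protein of the small-subunit head, stood at 35.5, 39.0 and 34.8 CPM at 0 h and at 19.1, 17.7 and 19.5 CPM at 8 h, which is 1.94-fold lower (log2 change -0.96, SE 0.10, adjusted p = 2.12e-08). MRPS18B went from 85.4, 91.1 and 91.7 CPM to 57.0, 50.5 and 54.6 CPM (log2 change -0.73, SE 0.066, adjusted p = 2.51e-09). MRPS24, the uS3m protein at the mRNA entry site, went from 74.0, 68.0 and 72.3 CPM to 48.0, 43.1 and 45.2 CPM (log2 change -0.65, SE 0.090, adjusted p = 1.31e-06). In each of the 3 genes, every 8 h library lay below every 0 h library. A read-through row of MRPS24 with its neighbour URGCP held 1.02% of the counts of MRPS24. MRPL34, a small basic protein of the large subunit, had a log2 change of -0.38. Of the 13 members that did not pass, the highest was MRPL45 (log2 change 0.15, adjusted p = 0.067) and the lowest MRPL53 (-0.27, adjusted p = 0.0665).

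**Figure D2:**
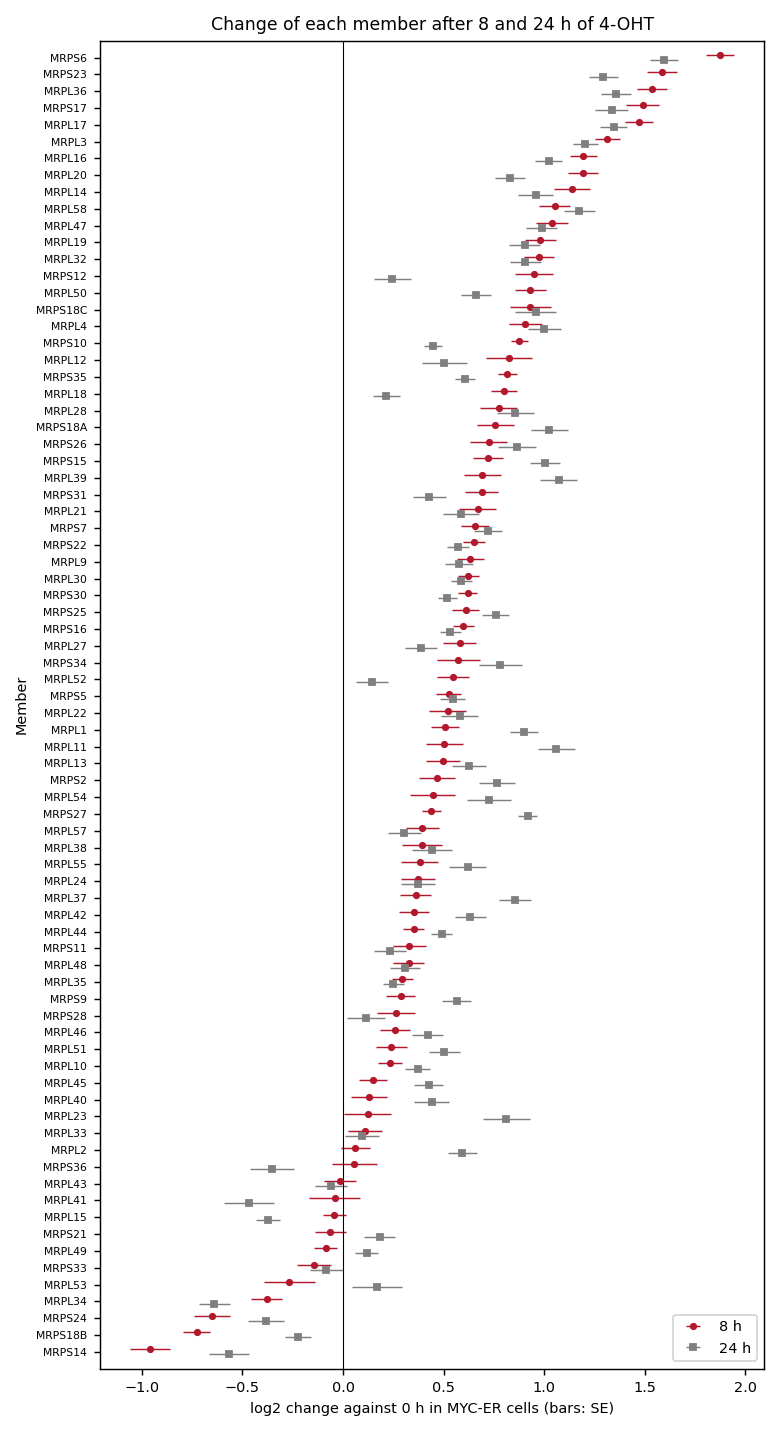
Log2 change against 0 h in MYC-ER cells (horizontal axis) for each of the 78 members (vertical axis, ordered by the 8 h change), with circles for 8 h, squares for 24 h and bars for the SE. The order runs from MRPS6 at 1.87 to MRPS14 at -0.96 at 8 h, and 61 members were called higher.

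Promoter sequences were matched for 70 of the 78 members in RefSeq (GRCh38.p14), and they are shown here because the members moved together. There was no entry for MRPL2, MRPL10, MRPL13, MRPL15, MRPL21, MRPL23, MRPL35 and MRPS28. Each entry holds the 250 bases before and the 50 bases after the annotated start. The windows below are the 150 bases before the start, 5′ to 3′ on the gene's strand, for the member with the largest rise, 3 further members that rose, the member with the largest fall and the MRPS18 family. Capitals mark the letters CACGTG (the canonical E-box bound by MYC and MAX), CCGGAAG (the core of ETS family sites) and GCATGCGC (the core of NRF1 sites), searched on both strands.
MRPS6, chr21:34073428-34073577, plus strand: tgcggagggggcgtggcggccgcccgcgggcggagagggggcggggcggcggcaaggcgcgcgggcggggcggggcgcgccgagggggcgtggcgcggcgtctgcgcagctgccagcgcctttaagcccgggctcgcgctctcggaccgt
MRPL36, chr5:1799838-1799987, minus strand: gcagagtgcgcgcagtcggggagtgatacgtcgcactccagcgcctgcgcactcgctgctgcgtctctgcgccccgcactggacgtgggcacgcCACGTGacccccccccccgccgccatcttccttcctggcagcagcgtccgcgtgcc
MRPL17, chr11:6683341-6683490, minus strand: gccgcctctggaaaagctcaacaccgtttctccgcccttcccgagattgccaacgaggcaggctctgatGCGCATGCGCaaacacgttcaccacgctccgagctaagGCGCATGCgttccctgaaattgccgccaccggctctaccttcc
MRPS34, chr16:1773135-1773284, minus strand: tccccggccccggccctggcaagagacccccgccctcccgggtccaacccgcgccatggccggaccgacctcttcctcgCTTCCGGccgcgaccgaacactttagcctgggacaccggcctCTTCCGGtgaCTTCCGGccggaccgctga
MRPS14, chr1:175023426-175023575, minus strand: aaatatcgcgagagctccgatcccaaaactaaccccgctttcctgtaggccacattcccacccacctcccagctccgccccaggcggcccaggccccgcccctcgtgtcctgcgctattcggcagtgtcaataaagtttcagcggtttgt
MRPS18A, chr6:43687792-43687941, minus strand: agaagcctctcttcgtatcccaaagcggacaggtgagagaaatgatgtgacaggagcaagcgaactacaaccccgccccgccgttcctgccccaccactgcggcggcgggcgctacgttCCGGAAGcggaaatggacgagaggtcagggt
MRPS18B, chr6:30617690-30617839, plus strand: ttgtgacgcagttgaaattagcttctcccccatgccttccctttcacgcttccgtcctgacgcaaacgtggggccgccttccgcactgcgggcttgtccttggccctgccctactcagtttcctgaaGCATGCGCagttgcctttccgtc
MRPS18C, chr4:83455908-83456057, plus strand: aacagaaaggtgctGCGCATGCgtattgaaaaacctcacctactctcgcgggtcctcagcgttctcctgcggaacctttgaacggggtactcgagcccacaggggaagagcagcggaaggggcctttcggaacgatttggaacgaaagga

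MRPL36 has an E-box whose first base lies 56 bases before the start. Unlike the other windows shown, that of MRPL36 lies inside the gene's own RefSeq span (chr5:1798385-1801434). The start used for it is therefore not the gene's outermost one. MRPL17 has 3 matches to the NRF1 letters, of which 2 overlap each other, and MRPS34 has 3 matches to the ETS letters at 71, 29 and 19 bases before the start. These 3 members were not the next largest rises after MRPS6, as MRPS23 and MRPS17, not shown, rose more than MRPL17 at 8 h. The windows of MRPS6, which rose most, and of MRPS14, which fell most, hold none of the 3 motifs. In the whole 300-base entries, CACGTG was found in 7 of 70 member promoters (10%), against 7.43% of all 27305 promoters and 8.88% of those of protein-coding genes. CCGGAAG was found in 29 of 70 (41.4%), against 10.7% of all promoters and 14.2% of protein-coding ones. GCATGCGC was found in 6 of 70 (8.57%), against 3.27% and 4.26%. Among the 55 members with an entry that rose at both 8 and 24 h, CACGTG was found in 4, CCGGAAG in 22 and GCATGCGC in 4, and among the other 15 members in 3, 7 and 2. These are matches of letters, not measured binding.

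After 24 h the rise was as broad. Of the 78 members 64 had risen and 7 had fallen, beside 30.4% of all genes called higher and 31.2% lower, and the median log2 change was 0.58 for the members and -0.02 for all genes. MRPS6 stood at 95.3, 96.8 and 94.5 CPM (log2 change 1.59, SE 0.070, adjusted p = 1.34e-14), MRPL36 at 41.9, 42.0 and 40.5 CPM (1.36, SE 0.075, adjusted p = 7.03e-13) and MRPL17 at 73.5, 71.0 and 67.7 CPM (1.35, SE 0.068, adjusted p = 1.32e-13). Every 24 h library of these 3 genes lay above every 0 h library. The members that fell were MRPL34 (log2 change -0.64), MRPS14 (-0.57), MRPL41 (-0.47), MRPS24 (-0.38), MRPL15 (-0.37), MRPS36 (-0.35) and MRPS18B (-0.22). The 8 epithelial markers summed to 9686 to 10057 CPM at 24 h against 13770 to 14240 CPM at 0 h, and their part in the result was not tested. At both times together, 59 members were called higher at 8 and at 24 h, and 4 were called lower at both.

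Between 8 and 24 h the members were called in either direction about as often as all genes were, with a median log2 change of 0.01 for the members and 0.05 for all genes. MRPL23, MRPL11 and MRPL2 had the largest rises. MRPL23, at the tunnel exit, stood at 22.9, 21.0 and 22.6 CPM at 8 h and at 36.3, 35.6 and 35.4 CPM at 24 h (log2 change 0.69, SE 0.115, adjusted p = 2.53e-05), after a change at 8 h that did not pass (0.12). MRPS12, the uS12m protein of the decoding centre, stood at 86.2, 78.6 and 83.1 CPM at 8 h and at 52.5, 50.3 and 49.4 CPM at 24 h (log2 change -0.70, SE 0.093, adjusted p = 1.14e-06). Its 24 h libraries remained above the 0 h libraries (43.5, 41.8 and 43.2 CPM). In all, 24 members were called higher and 18 lower at 24 h than at 8 h, beside 28.4% and 27.1% of all genes. With library size as the only scaling these counts were 48 and 6, with a median of 0.21 for the members and 0.26 for all genes. With upper-quartile scaling they were 31 and 9, and with the GC trend removed 34 and 13.

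By 48 h most of the rise was gone. Against 24 h, 61 members were called lower and 2 higher, beside 25.5% and 28.2% of all genes, with a median log2 change of -0.47 for the members and 0.06 for all genes. MRPL17 fell furthest, to 26.8, 26.4 and 26.9 CPM (log2 change against 24 h -1.41, SE 0.068, adjusted p = 1.74e-13). Its 0 h values were 27.4, 27.3 and 28.8 CPM, and its change from 0 to 48 h did not pass (-0.06, adjusted p = 0.508). MRPS6 stood at 46.8, 45.8 and 44.0 CPM at 48 h (-1.07 against 24 h), above its 0 h range, and MRPS17 at 21.5, 19.7 and 20.6 CPM (-1.05), also above its 0 h libraries (17.4, 16.0 and 17.1 CPM). The 2 members called higher were MRPS24 (0.41) and MRPL10 (0.14, adjusted p = 0.0494), and MRPL10 lost its call in 5 of the 6 fits that left out a 24 h or 48 h MYC-ER library, all but that without 24 h replicate 1.

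Against 0 h, 33 members were still higher at 48 h and 14 were lower, beside 23.4% and 20.7% of all genes, with a median log2 change of 0.13 for the members and 0.03 for all genes. No member reached a 2-fold change. The largest rises were those of MRPS18A (0.79, SE 0.090, adjusted p = 2.57e-07), MRPL23 (0.76, SE 0.115, adjusted p = 1.27e-05) and MRPS27 (0.56, SE 0.048, adjusted p = 2.99e-09). MRPS27 stood at 119, 124 and 125 CPM at 0 h, 170, 161 and 168 CPM at 8 h, 239, 228 and 229 CPM at 24 h and 176 to 184 CPM at 48 h. The largest falls were those of MRPL34 (-0.65), MRPL41 (-0.60) and MRPL15 (-0.59). With library size as the only scaling, 49 members were higher and 7 lower, with a median of 0.29 for the members and 0.19 for all genes. Without MYC-ER 0 h replicate 3, and likewise without 48 h replicate 3, 9 members were lower.

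Calls over the 3 times in MYC-ER cells took 13 patterns. The largest, of 30 members, was higher at 8, 24 and 48 h, and 23 were higher at 8 and 24 h and not called at 48 h. Another 6 were higher at 8 and 24 h and lower at 48 h, and each of the other patterns held 1 to 3 members. MRPL45 and MRPL10 had their highest MYC-ER levels at 48 h. MRPL45, which anchors the ribosome to the inner membrane, held 55.7, 62.7 and 62.8 CPM at 0 h, 69.3, 63.3 and 68.3 CPM at 8 h, 79.1, 81.1 and 83.0 CPM at 24 h and 90.9, 89.1 and 84.5 CPM at 48 h. Among the 4 MYC-ER groups, the highest mean was that of 8 h for 35 members, of 24 h for 32, of 48 h for 4 and of 0 h for 7.

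**Figure D3:**
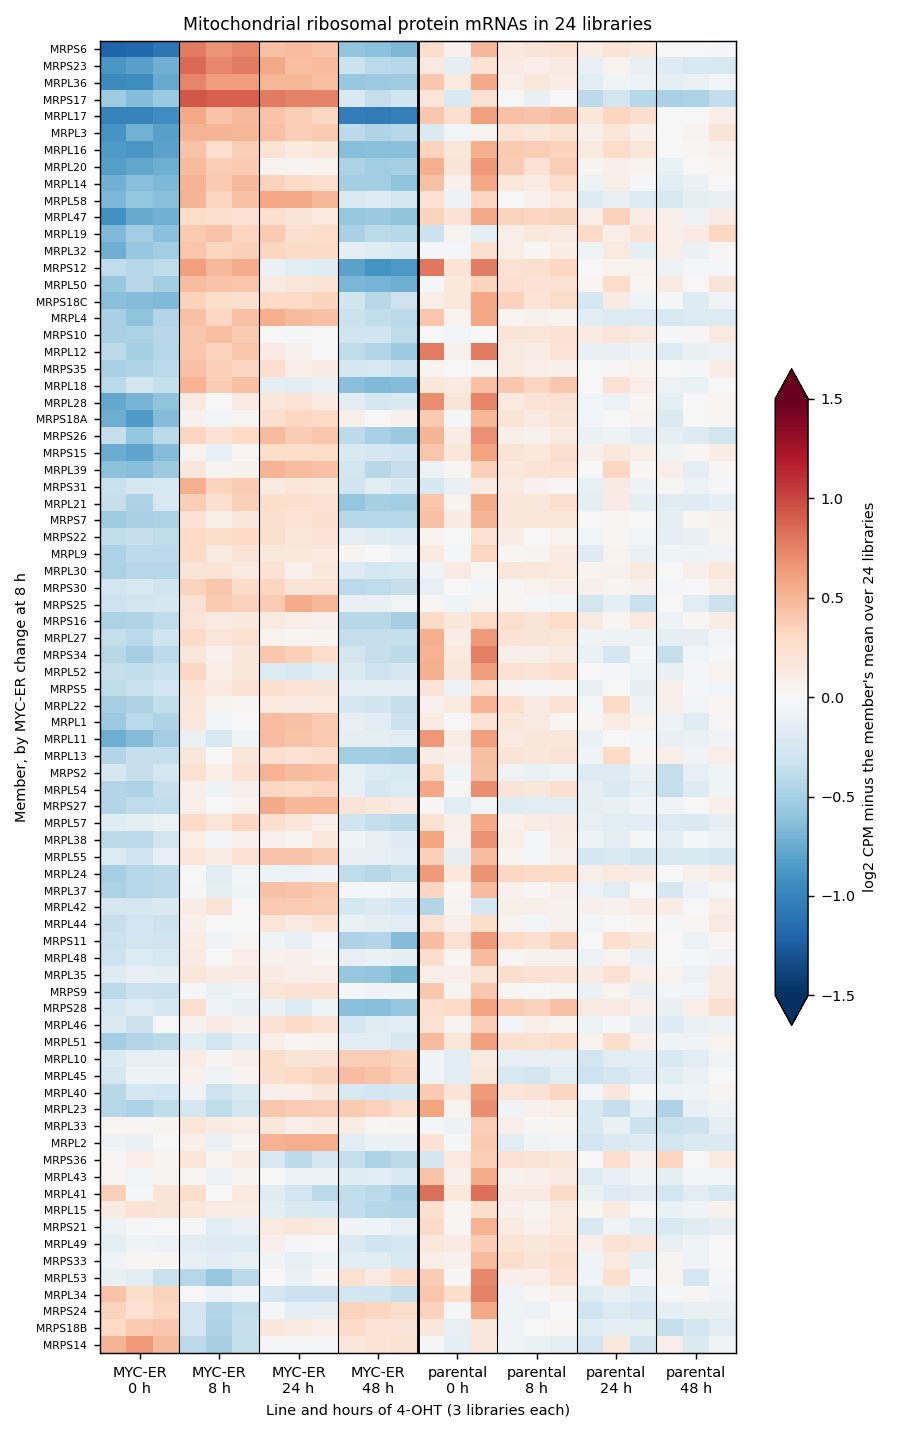
Log2 CPM of each of the 78 members (vertical axis, ordered by the MYC-ER change at 8 h) in each of the 24 libraries (horizontal axis, 3 per group), minus the member's mean over the 24 libraries. The MYC-ER 0 h columns are below the mean for most members, 44 of which have their lowest group mean there, and parental 0 h replicates 1 and 3 stand above replicate 2.

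**Figure D4:**
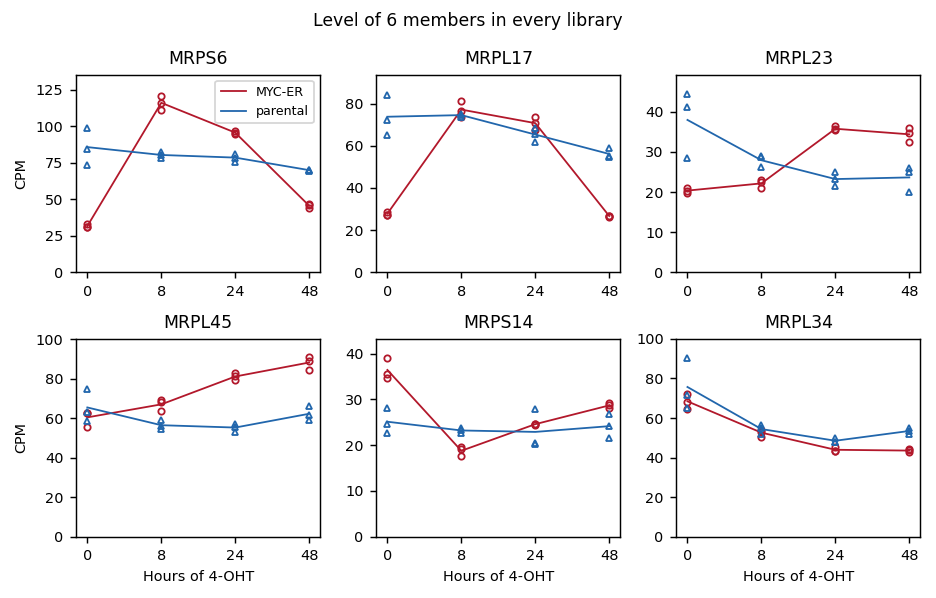
CPM (vertical axis) of 6 members at 0, 8, 24 and 48 h of 4-OHT (horizontal axis) in MYC-ER (circles) and parental cells (triangles), with lines through the means of 3 libraries. MRPL17 rises and returns to its 0 h level, MRPS6 comes down from its peak but stays above 0 h at 48 h, MRPL23 and MRPL45 are well above 0 h at 48 h, and MRPS14 and MRPL34 are lower at each later time than at 0 h in MYC-ER cells.

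The calls were spread over both subunits. In the large subunit 40 of 51 members rose at 8 h and 1 fell (median log2 change 0.50), and in the small subunit 21 of 26 rose and 3 fell (0.60). At 24 h the medians were 0.59 and 0.57. Of the 48 bacterial homologues 39 rose and 4 fell at 8 h (median 0.61), and of the 29 mitochondria-specific proteins 22 rose and 7 were not called (0.39). At 24 h these counts were 41 and 5 (0.59) and 23 and 1 (0.50). No difference between these sets was tested.

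The stalk, where translation factors dock, comprises MRPL10, MRPL11, MRPL12, MRPL53 and MRPL54. At 8 h MRPL12, the stalk's flexible tip, had the largest log2 change (0.83), followed by MRPL11 at its base (0.50), MRPL54 (0.45) and MRPL10 (0.23), and MRPL53 did not pass. MRPL11 stood at 23.7, 25 and 27.3 CPM at 0 h, 36.9, 33.4 and 37.5 CPM at 8 h and 54.0, 52.9 and 51.5 CPM at 24 h, so its libraries did not overlap between these times. MRPL12 stood at 61.1, 56.6 and 59.5 CPM at 0 h, at 106, 101 and 107 CPM at 8 h and at 61.4, 58.9 and 54.8 CPM at 48 h, so the 48 h libraries overlapped those at 0 h. MRPL10 held 62.6, 62.4 and 61.0 CPM at 48 h against 41.6, 44.3 and 44.2 CPM at 0 h (log2 change 0.51).

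Of the 8 proteins at the tunnel exit and membrane anchor, 6 rose at 8 h and 8 at 24 h. Their 24 h log2 changes ran from 0.37 for MRPL24 to 1.35 for MRPL17. MRPL47 (0.99), MRPL39 (1.07) and MRPL44 (0.49) lay between. MRPL24 overlaps HDGF, a gene with 936% of its counts, so the value for MRPL24 is uncertain. At 48 h 5 of the 8 were still called higher. Of the 9 proteins of the central protuberance, 8 rose at 8 h and 8 at 24 h, with medians of 0.39 and 0.42, and at 48 h 1 was higher and 1 lower. MRPL18, a protein of this group whose bacterial homologue binds 5S rRNA, had log2 changes of 0.80 at 8 h, 0.21 at 24 h and -0.30 at 48 h, each past the threshold. MRPL58, a peptidyl-tRNA hydrolase that also sits in the ribosome and releases stalled chains, rose from 15.7, 16.8 and 16.3 CPM to 35.7, 31.4 and 34.2 CPM at 8 h and 37.6, 37.3 and 35.4 CPM at 24 h.

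The MRPS18 family consists of 3 paralogues that occupy different places, MRPS18A in the large subunit and MRPS18B and MRPS18C at separate sites of the small subunit. In MYC-ER cells MRPS18A stood at 16.0, 14.8 and 16.9 CPM at 0 h, 27.9, 25.8 and 27.0 CPM at 8 h and 31.5, 33.0 and 32.6 CPM at 24 h. MRPS18C went from 10.2, 10 and 9.89 CPM to 19.9, 18.8 and 18.6 CPM at 8 h and 19.2, 19.3 and 19.8 CPM at 24 h. MRPS18B moved the other way, as given above, and stood at 78.5, 76.6 and 74.5 CPM at 24 h, still below its 0 h libraries. The log2 changes at 8 h were thus 0.76 for MRPS18A, 0.93 for MRPS18C and -0.73 for MRPS18B. MRPS18C overlaps ABRAXAS1, a DNA repair gene with 62.9% of its counts, whose log2 change was -0.81.

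In parental cells, which lack the fusion, 4-OHT was followed by small changes in the opposite direction. At 8 h 4 members were called higher and 25 lower, beside 15% and 16% of all genes, with a median log2 change of -0.13 for the members and 0.00 for all genes. At 24 h 5 were higher and 53 lower, beside 21.2% and 21.7% of all genes, with medians of -0.30 and -0.03. At 48 h 2 were higher and 57 lower, beside 20.4% and 20.1%, with medians of -0.34 and 0.00. No member changed 2-fold at any time. The largest falls at 24 h were those of MRPL41, MRPL23 and MRPL12. MRPL41, a large-subunit protein found only in mitochondrial ribosomes, stood at 71.5, 45.1 and 71.9 CPM at 0 h and at 37.7, 35.4 and 35.9 CPM at 24 h (log2 change -0.79, SE 0.125, adjusted p = 4.39e-05). Its call was lost with the GC trend removed (-0.14, adjusted p = 0.0604), and with GC and length trends removed its direction turned (0.0067, adjusted p = 0.945). MRPL19, the bL19m protein, was highest among the rises, from 58.8, 75.8 and 67.1 CPM to 90.4, 78.9 and 86.0 CPM (0.34, SE 0.076, adjusted p = 0.000996).

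These parental results rest on the 3 untreated libraries and on how the spread is estimated. At 8 h the counts of members higher and lower were 2 and 12 without parental 0 h replicate 1, 6 and 48 without replicate 2, and 7 and 5 without replicate 3. At 24 h they were 3 and 49, 5 and 59, and 5 and 37, and at 48 h 1 and 56, 2 and 62, and 3 and 46. MRPL41 in replicate 2 (45.1 CPM) and in the other untreated libraries (71.5 and 71.9 CPM) shows the spread behind this. When only the 2 groups compared entered edgeR, no member was called at 8 h (19 had an unadjusted p under 0.05, and DESeq2 on all groups called 6 higher and 25 lower), 24 were called lower at 24 h and 27 lower at 48 h.

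The parental changes were ordered by base composition. Across the 78 members, Spearman's rho between log2 change and transcript GC content was -0.78, -0.79 and -0.78 in the order 8, 24 and 48 h, and over 9777 genes of at least 10 CPM it was -0.62, -0.66 and -0.65. In MYC-ER cells the same values for the members were -0.12, -0.06 and 0.01. These correlations across genes share their libraries and are given as descriptions. The members' transcripts ran from 35.0% to 71.9% GC, and MRPL41, at the top of that range, had the largest parental fall at 24 and 48 h without such a correction. At 8 h its change of -0.46 turned to 0.011 with the GC trend removed and to 0.070 with GC and length trends removed. With each library's trend on GC content removed, 2 members were higher and 59 lower at 24 h, and with GC and length trends removed 4 were higher and 25 lower, with a median of -0.06. At 48 h these fits gave 1 higher and 61 lower, and 2 higher and 39 lower with a median of -0.13. MRPL42, a rise of 0.28 at 24 h, stood at -0.10 with the GC trend removed.

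**Figure D5:**
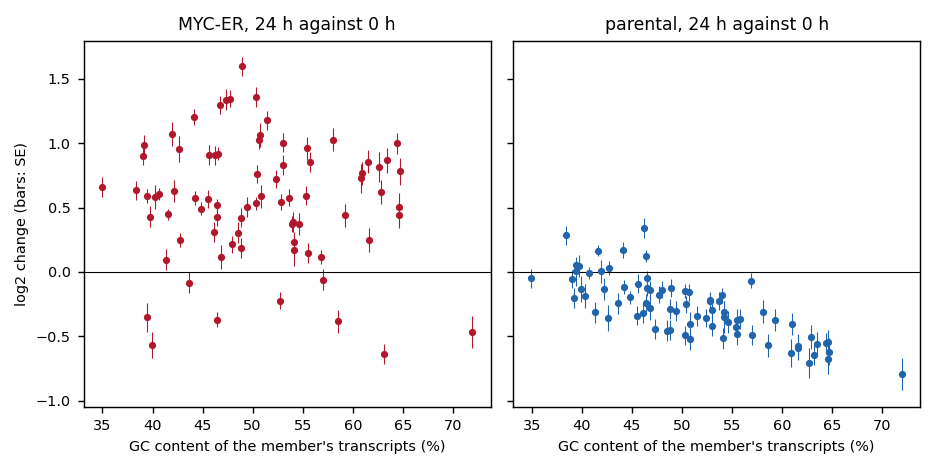
Log2 change at 24 h against 0 h (vertical axis) against the GC content of the transcript in percent (horizontal axis) for the 78 members, in MYC-ER and parental cells. The parental points slope down from low to high GC (rho -0.79), and the MYC-ER points do not line up with it (rho -0.06).

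Before any 4-OHT, most members stood below their parental level in the MYC-ER line. At 0 h 68 members were lower and 2 higher in the MYC-ER line, beside 32.7% and 31.6% of all genes, with a median log2 difference of -0.64 for the members and 0.00 for all genes. MRPS6 (30.7 to 33.2 CPM against 73.7 to 99.0 CPM) had the largest difference, -1.44 (SE 0.070, adjusted p = 8.56e-14), followed by MRPL17 (-1.41) and MRPL36 (-1.26). None of these 3 genes' libraries overlapped between the lines. The SE and p-value rest on a spread estimated over all 8 groups, and the parental 0 h libraries were the most widely spread. With only the 2 groups compared in the fit, 2 members were higher and 63 lower, with a median of -0.64. MRPS14 (0.54) and MRPS18B (0.28), which fell in MYC-ER cells at 8 h, were the 2 higher at 0 h. The fibroblast markers summed to 369 to 377 CPM in MYC-ER and 117 to 133 CPM in parental cells at 0 h, and the epithelial markers to 13770 to 14240 and 21804 to 28083 CPM. Their part in the result was not tested. With GC and length trends removed, 10 members were higher and 61 lower, with a median of -0.40.

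With 4-OHT the difference between the lines narrowed. At 8 h 23 members were higher and 15 lower in MYC-ER cells, beside 23.1% and 25.5% of all genes (median difference 0.03 for the members and -0.05 for all genes). With library size as the only scaling 19 were higher and 23 lower, and with GC and length trends removed 36 and 13. Without MYC-ER 8 h replicate 2, 9 were lower. MRPS17 (0.95), MRPS23 (0.67) and MRPL36 (0.54) were the furthest above the parental level, and MRPL53 (-0.60), MRPL51 (-0.45) and MRPL40 (-0.43) the furthest below. At 24 h 41 were higher and 7 lower, beside 23.5% and 25.8% (medians 0.19 and 0.02), or 56 and 2 with library size alone and 51 and 1 with upper-quartile scaling. Without parental 24 h replicate 2 or 3, or MYC-ER 24 h replicate 2, 4 were lower. MRPS17 was 2.18-fold higher there, at 43.1, 42.1 and 42.3 CPM against 19.1, 20.7 and 18.7 CPM. At 48 h 8 were higher and 41 lower, beside 27.3% and 29.4% (medians -0.20 and 0.02), or 17 and 26 with either of these scalings. MRPL17 was furthest below, at 26.8, 26.4 and 26.9 CPM against 54.5, 55.1 and 58.8 CPM (-1.07, SE 0.068, adjusted p = 1.39e-11). Of the 78 members, 36 had their highest mean of all 8 groups in untreated parental cells and 44 their lowest in untreated MYC-ER cells.

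The change in MYC-ER cells was then set against that in parental cells in 1 test, the line by time interaction. At 8 h 64 members were higher and 2 lower by this measure, beside 27.3% and 27.8% of all genes, with medians of 0.61 and -0.08. At 24 h 69 were higher and 2 lower, beside 27.7% and 26.8%, with medians of 0.80 and 0.02. At 48 h 55 were higher and 5 lower, beside 23.6% and 21.4%, with medians of 0.44 and 0.07. Across the 78 members, Spearman's rho between this measure and transcript GC content was 0.18, 0.32 and 0.49 at 8, 24 and 48 h. Over the 9777 genes of at least 10 CPM it was 0.23, 0.25 and 0.46. MRPS6 led at 8 h (1.97, SE 0.098, adjusted p = 2.79e-13), MRPL36 at 24 h (1.85, SE 0.106, adjusted p = 2.51e-12) and MRPL23 at 48 h (1.44, SE 0.163, adjusted p = 3.59e-07). The 2 members below at 8 h were MRPS14 (-0.84) and MRPS18B (-0.64), and those at 24 h MRPS14 (-0.43) and MRPL15 (-0.25). MRPS14 at 24 h lost its call with the GC trend removed (-0.10), and when parental 24 h replicate 2 was left out its adjusted p was 0.0505 (-0.27). Both lines' changes use their own 0 h libraries, and the wide parental 0 h group enters each of these values. Without 1 parental 0 h library at a time, the 8 h median lay between 0.55 and 0.70, the 24 h median between 0.69 and 0.91 and the 48 h median between 0.30 and 0.53.

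Other genes of mitochondrial translation were counted from lists of known function, beside the 32.2% of all genes called higher and 35.4% lower at 8 h in MYC-ER cells. The 5 ribosomal subunits outside the symbol rule (DAP3, PTCD3, AURKAIP1, CHCHD1 and GADD45GIP1) all rose at 8 h in MYC-ER cells, by 0.45 to 0.91 on the log2 scale. Of 26 assembly factors 16 rose and 6 fell, led by TFB1M, which methylates the small ribosomal RNA (1.73), and MTERF4, which guides a methyltransferase to the ribosome, was lowest (-0.92). Of 16 translation factors 9 rose and 4 fell, with the elongation factor GFM1 highest (1.44). Of 17 mitochondrial aminoacyl-tRNA synthetases 10 rose and 2 fell, and of 20 import components 14 rose and 2 fell, among them the import channel TOMM40 (1.73). Of 10 genes for mitochondrial transcription and genome maintenance 9 rose and 1 fell.

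The mRNAs that the mitochondrial ribosome translates had medians below 0 in MYC-ER cells, although at 8 h fewer of them were called lower than the 35.4% of all genes. Of the 13 protein-coding genes of the mitochondrial genome 2, 7 and 10 were lower after 8, 24 and 48 h in MYC-ER cells, beside 35.4%, 31.2% and 20.7% of all genes, with median log2 changes of -0.30, -0.44 and -0.64. Of 83 cytosolic ribosomal protein genes tested, matched by symbol, 4 rose and 72 fell at 8 h in MYC-ER cells (median -0.39), beside 32.2% and 35.4% of all genes. At 48 h 6 rose and 9 fell, beside 23.4% and 20.7%. In parental cells at 8 h 66 fell, beside 16% of all genes. That count rests on the same widely spread parental 0 h libraries as the members' parental calls. In the interaction at 8 h 5 of the 83 were higher and 5 lower (median -0.06), beside 27.3% and 27.8% of all genes. At 24 h 20 were higher and 1 lower (median 0.16), beside 27.7% and 26.8%. At 48 h 44 were higher and 1 lower (median 0.33), beside 23.6% and 21.4%.

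Per kilobase of transcript, the members spanned a wide range of levels. MRPL51, a large-subunit protein found only in mitochondrial ribosomes, was highest at 159 CPM per kb averaged over the 24 libraries, followed by MRPS27 (120) and MRPL49 (110). The median was 44.7 and the lowest was MRPL22 (10.5), a protein of the tunnel exit. Each length is a median over the gene's annotated transcripts, not the length of those expressed here, so this order is approximate. Member transcripts were short, with a median of 1137 bases against 2615 for genes of at least 10 CPM. The log2 change at 8 h in MYC-ER cells had a Spearman's rho of 0.16 with transcript length and 0.12 with mean CPM across the 78 members.

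Some member counts may include reads of other genes. In RefSeq 27 members overlap another gene, and 13 overlap one with at least 10% of their counts. Beyond MRPS6, MRPL36 and MRPS18C, these include MRPL24 with HDGF (936% of its counts, log2 change of HDGF at 8 h 0.78). MRPS34 overlaps EME2, a gene with 117% of its counts and a log2 change of 0.39. Also among them are MRPL47 with ACTL6A (log2 change of ACTL6A at 8 h 1.14), MRPL14 with TMEM63B (-0.94) and MRPL2 with KLC4 (-2.54). Below that 10% mark, MRPL23 overlaps H19 (8.35% of its counts, log2 change of H19 at 8 h 2.84). MRPL34 overlaps ABHD8 (6.82% of its counts, log2 change of ABHD8 at 8 h -1.73). Of 79 pseudogene rows of members 52 had no counts, and 2 held over 1% of the counts of their parent gene. These were MRPS31P5 with 24.6% and MRPS31P4 with 7.21% of the counts of MRPS31, whose own level is uncertain for that reason.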

How the data were processed

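The deposited values are raw whole-number gene counts for 24 libraries. Per the submitters' processing notes, Trimmomatic 0.39, STAR and StringTie 2.1.3b were used with GRCh38. If StringTie produced the counts, they are estimates from coverage. The annotation release, strand setting and treatment of multi-mapping reads are not given in the sources used here. Symbols matched 60295 of 60668 rows.

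Genes passing filterByExpr entered 1 edgeR model (version 4.0.16, R 4.3.3) with TMM factors and a mean for each of the 8 groups. Each comparison used the two-sided quasi-likelihood F test, with Benjamini-Hochberg adjustment over all genes tested and a threshold of 0.05. SE is the log2 change divided by the square root of F. CPM is per TMM-scaled total. Log2 CPM, used in the heat map, has a prior count of 2. The script was tested on simulated data. Length and GC content are medians over GENCODE transcripts.

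Members and lists were chosen with earlier results of these data known. Named members are the 3 largest rises and 3 largest falls past the threshold in each contrast, those at the ends of the others, and members with a listed role. MRPS34 and the further members named in the text were chosen after their values were seen. Alternatives were other scalings and filters, DESeq2 1.42.0, trends on GC and length, fits of the compared groups, a replicate block and leaving out each library. A GC trend combined with the compared groups, and leaving out overlapping members, were added after seeing the data.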

Additional observations from a re-analysis of the deposited data

Results flagged for a closer look

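The line by time interaction, a test of the difference between the changes in MYC-ER and parental cells, called 66, 71 and 60 members after 8, 24 and 48 h. At 8 h the named members were MRPS6 (1.97), MRPL36 (1.80), MRPS17 (1.603), MRPS18B (-0.64) and MRPS14 (-0.84), as log2 differences between the lines' changes. At 24 h they were MRPL36 (1.85), MRPS17 (1.78), MRPS6 (1.72), MRPL15 (-0.25) and MRPS14 (-0.43). At 48 h they were MRPL23 (1.44), MRPS18A (1.16), MRPL28 (1.06), MRPL35 (-0.37), MRPL15 (-0.38) and MRPS36 (-0.52). Each passed edgeR's quasi-likelihood test with an adjusted p under 0.05.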

How the results depend on the processing

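For MYC-ER 8 h against 0 h the members' median log2 change of 0.52 was 0.43 with library size alone and 0.38 with upper-quartile scaling. At 24 h (0.58) it was 0.69 and 0.54 with these scalings, 0.61 with DESeq2 size factors and with DESeq2's Wald test, 0.52 with GC and length trends removed and 0.62 with only the groups compared. At 48 h (0.13) it was 0.29 and 0.17 with the scalings, 0.15 with at least 10 counts in every library and 0.18 with the GC trend removed. For 24 h against 8 h (0.01) it was 0.21, 0.11 and, with the GC trend removed, 0.078. For 48 h against 24 h (-0.47) it was -0.43 and -0.40 with the scalings, -0.50 with DESeq2 size factors and the Wald test, -0.44 with GC and length trends removed and -0.51 with only the groups compared.

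In parental cells, 29 members called at 8 h became 16 with the GC trend removed, 17 with GC and length trends removed and 0 with only the groups compared, with or without the GC trend (19 and 10 at an unadjusted p under 0.05 in edgeR), and 12 to 54 without 1 library. At 24 h 58 became 29 with GC and length trends removed (median -0.064), 24 with only the groups compared and 19 with the GC trend removed as well. At 48 h 59 became 27 and 16 in these last fits, and the median was -0.13 with GC and length trends removed. The direction turned for MRPL41 at 8 h (0.011 with the GC trend removed, 0.070 with GC and length, 0.0020 with the GC trend removed and only the groups compared) and at 24 h (0.0067 with GC and length). It turned for MRPL42 (-0.10 and -0.12 at 24 h, -0.12 and -0.12 at 48 h) and MRPL3 at 24 h (-0.025 and -0.038) with the GC trend removed in all groups and in only the groups compared.

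Between the lines, the median at 0 h was -0.40 with GC and length trends removed. At 8 h (0.03) it was -0.055 and -0.015 with library size and upper-quartile scaling, 0.13 with GC and length trends removed and -0.028 with the GC trend removed and only the groups compared. At 24 h (0.19) it was 0.31, 0.29 and, with the GC trend removed, 0.26, and 0.18 to 0.25 without 1 library. At 48 h (-0.20) it was -0.058 and -0.060 with the scalings, -0.14 with the GC trend removed and -0.14 with only the groups compared as well. The cause was not tested. Same-numbered libraries had correlations of -0.078 to 0.094 over 84 pairs. Libraries with different numbers had -0.058 to 0.085 over 168 pairs, so the numbers showed no pairing. With a replicate block 66 members were called at 8 h in MYC-ER cells and 29 in parental cells, with every count of called members within 1.5 times.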
